A study of Homo sapiens with 8 samples.

Results

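The adherent cells of the ovarian carcinoma line COV318 were compared with and without forced expression of MGP, using 2 of the 8 RNA-seq libraries of the series and all 20339 genes of the count table. COV318 is an established cell line that the labels assign to ascites and describe as epithelial. Its adherent cells were grown in DMEM with 10% fetal bovine serum. COV318-MGP cells were made with a lentivirus that carried the human MGP cDNA and COV318-CTR cells with the empty lentivirus. Both viruses were packaged in HEK293T cells, a line of embryonic kidney origin, both lines were selected with puromycin, and both were at passage 18. Cells kept on plastic were called bulk, and cells kept as floating spheres of ovarian cancer stem cells were called OCSC. Per the paper's methods, spheres of cell lines were kept in another medium, with B27 supplement and the growth factors EGF and FGF2. Bulk and sphere libraries therefore differed in medium as well as in attachment. The RNA of 1 culture per line was measured in each state, so the comparison had 1 library on each side and no replicate check. All intervals below are exact 95% intervals of counting error alone.

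MGP, the matrix Gla protein, is a small secreted protein that carries vitamin K-dependent gamma-carboxylated residues, inhibits the calcification of vessels and cartilage and can bind bone morphogenetic proteins (BMPs). High-grade serous carcinoma of the ovary, the tumour that COV318 is used to model, usually keeps features of Mullerian duct epithelium such as the transcription factors PAX8 and SOX17, simple keratins and the surface antigens mesothelin and CA125. In the epithelial to mesenchymal transition (EMT), cells lose junctions and keratins and gain mesenchymal filaments, matrix proteins and repressors of the SNAI, ZEB and TWIST families.

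Counts are given for COV318-CTR first and COV318-MGP second. The libraries held 37393919 counts in COV318-CTR bulk and 29814396 in COV318-MGP bulk, so that the limit set by 3 counts was 0.0802 and 0.101 CPM (counts scaled to a fixed library total), respectively. The log2FC is the difference, COV318-MGP minus COV318-CTR, of log2(normalized count + 1), where the counts were divided by median-of-ratios size factors over the 8 libraries, and the range after a log2FC is its counting interval. A gene was measured when either bulk library had 10 counts or more. It was called higher (rose) or lower (fell) when the size of its log2FC reached 1 and its interval excluded no change. Where a library had 1 to 3 counts, the log2 ratio of the normalized counts, with nothing added, replaces the log2FC. Where a library had 0, a lower bound on the fold is given, with that library set at 3 counts.

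The targeted gene followed the labels. MGP (GRCh38.p14, chr12:14880864-14885854) had 1 and 40393 counts in the bulk libraries (log2 ratio 15.33, 12.85 to 20.64) and 0 and 28694 counts in the sphere libraries. The count in the COV318-MGP line includes transcripts of the introduced cDNA.

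The difference between the libraries reached far beyond MGP. Of 19075 measured genes, 4555 (23.9%) rose and 4927 (25.8%) fell, while the median log2FC over all measured genes was -0.04. These percentages are the background for every list of genes described here. At a log2FC of 3 or more in size, 1766 genes were higher and 1958 lower, and at 8 or more 106 were higher and 228 lower. A level of 1000 normalized counts or more was reached by 4694 genes in adherent COV318-CTR cells, of which 79 had 3 counts or fewer in adherent COV318-MGP cells, and 75 of those 79 were also at 3 counts or fewer in the COV318-MGP spheres. In the opposite direction, 24 of 4272 genes at that level in COV318-MGP bulk had 3 counts or fewer in COV318-CTR bulk, 20 of them also in the COV318-CTR spheres.

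**Figure D1:**
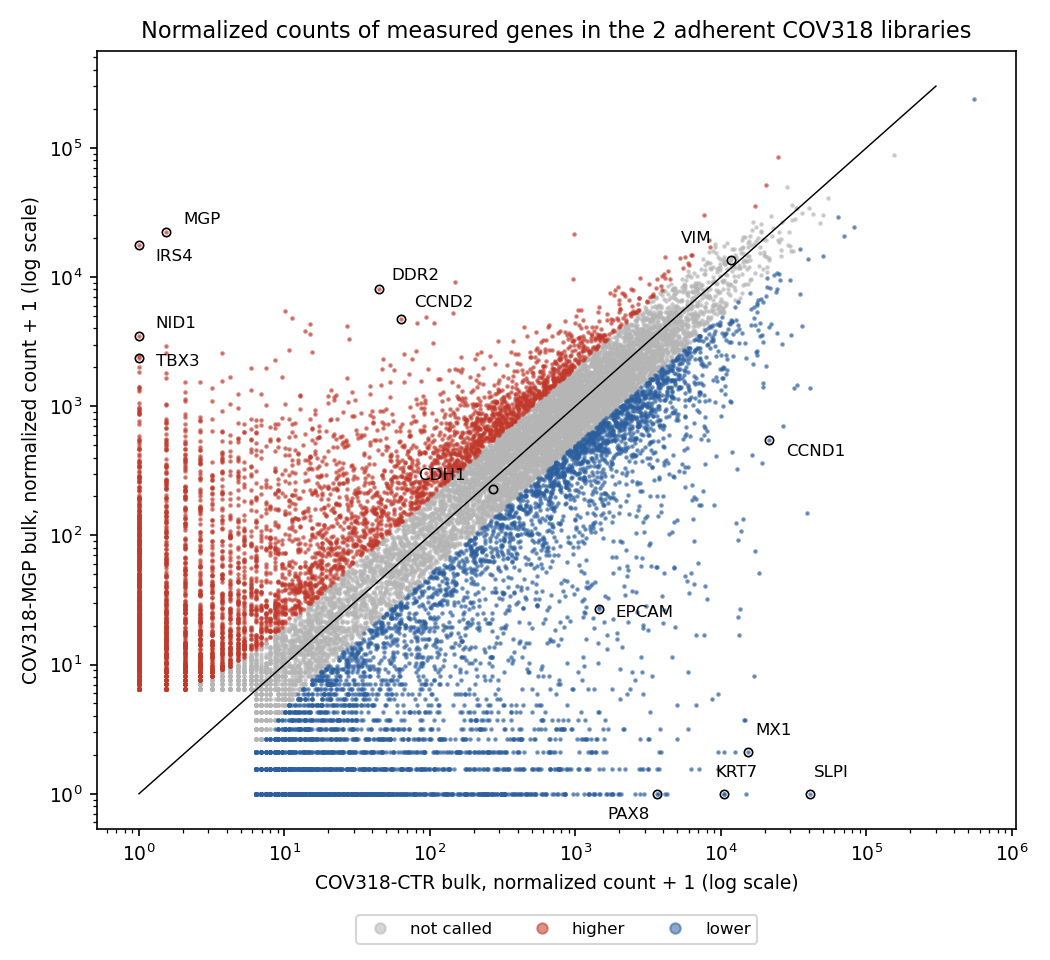
Normalized count + 1 of each measured gene in COV318-CTR bulk (horizontal, log scale) and COV318-MGP bulk (vertical, log scale). Each point is a gene, colored as called higher, called lower or not called, and the line marks equal values. MGP and IRS4 stand at the upper left, and KRT7, PAX8, MX1 and SLPI lie along the lower edge, at or near 0 in COV318-MGP.

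The label "epithelial cell" was checked against Mullerian and epithelial markers. In COV318-CTR the Mullerian and simple epithelial markers were present, with 6778 counts of PAX8, 5183 of SOX17 and 19478 of KRT7. In COV318-MGP all 3 of these genes were at 0, in the bulk and in the sphere library alike. Other epithelial genes kept counts in COV318-MGP bulk, with 2573 of KRT18, 556 of KRT8, 8214 of DSP and 417 of CDH1. KRT18, KRT8 and DSP were called lower there and CDH1 was not called. The virus was packaged in HEK293T cells, so markers of kidney and packaging cells were examined as well. Of 14 listed genes 13 were in the table and 12 were measured, of which 7 rose and 4 fell. IRS4, an adaptor of insulin signaling known to be abundant in HEK293 cells, was not on that list and had 0 and 32351 counts.

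The kidney and packaging list did not move as a block, although its median log2FC was 3.11. SALL1, a transcription factor of the early kidney, rose from 0 to 532 counts (at least 181-fold higher), as did the coactivator EYA1, from 14 to 380 counts (log2FC 4.62, 4.03 to 5.68). CDH6, the cadherin of the renal vesicle, fell from 26928 to 5 counts (log2FC -11.92, -13.99 to -11.14), and the RNA-binding protein LIN28B had 4152 and 4964 counts. PAX2, a defining factor of kidney progenitors, had 0 and 9 counts. Of the list, 4 genes were at 0 in COV318-CTR bulk. The neurofilament genes NEFL, NEFM and INA, which rose, stood on this list and on the neuronal list below. The summed normalized count of the list was 27414 in COV318-CTR and 6325 in COV318-MGP. In COV318-CTR, CDH6 made up 14504 of it and DPPA4, also on the pluripotency list below, 10568. Whether the COV318-MGP culture still consisted of COV318 cells was not tested here, since the count table holds no genetic profile of the lines. The paper's methods state that cell lines were authenticated by short tandem repeat profiling, without saying whether the transduced lines were included. The words rose and fell below therefore compare the library labelled COV318-MGP with the library labelled COV318-CTR. The part that cells other than those named on the label had in these differences was not tested. In bulk RNA, fewer cells of a type and less RNA per cell cannot be told apart.

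The Mullerian and ovarian carcinoma programme was lower in COV318-MGP in nearly every measured member. Of 18 listed factors and antigens 17 were measured, 16 fell and 1 rose, with a median log2FC of -4.29. PAX8, a lineage factor of the fallopian tube and kidney, and SOX17, its frequent partner in serous carcinoma, fell from 6778 to 0 counts (at least 2213-fold lower) and from 5183 to 0 counts (at least 1692-fold lower). WT1, the factor used to mark serous histology, fell from 1254 to 61 counts (log2FC -4.29, -4.73 to -3.96), and MECOM, a regulator amplified in serous carcinoma, fell from 19726 to 2261 counts (log2FC -3.09, -3.16 to -3.03). EMX2, a homeobox factor of the reproductive tract, fell from 1779 to 129 counts (log2FC -3.74, -4.02 to -3.50).

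The surface and secreted antigens of the same list fell with the factors. The tight junction protein CLDN16 fell from 19325 to 0 counts (at least 6308-fold lower) and mesothelin, MSLN, from 3800 to 0 counts (at least 1240-fold lower). WFDC2, which encodes the serum marker HE4, fell from 688 to 2 counts (log2 ratio -8.40, -11.44 to -6.54), and MUC16, which carries the CA125 epitope, from 229 to 3 counts (log2 ratio -6.22, -8.51 to -4.66). The member that rose was PGR, the progesterone receptor, which went from 0 to 161 counts (at least 54.8-fold higher). Of the 17 measured genes, 8 were at 0 in COV318-MGP bulk.

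Mesothelial markers, which overlap with those of serous carcinoma, fell in 9 of 10 measured genes, and none rose (median log2FC -8.45, or -8.08 with the genes at 0 at their bounds). UPK3B, a uroplakin of mesothelial cells, fell from 13158 to 1 counts (log2 ratio -13.65, -18.96 to -11.18) and BNC1, a zinc finger factor of mesothelium and keratinocytes, from 430 to 4 counts (log2FC -6.18, -8.60 to -5.35).

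Keratins, the intermediate filaments of epithelium, fell in both classes examined. All 6 measured keratins of simple epithelium fell (median log2FC -6.60), and 5 of 6 measured keratins of stratified epithelium fell, with a median of -3.78, or -2.93 with the genes at 0 placed at their bounds. KRT7 (chr12:52233243-52255853) fell from 19478 to 0 counts (at least 6358-fold lower) and KRT19 from 17608 to 1 counts (log2 ratio -14.07, -19.38 to -11.60). KRT18 was retained at a lower level, from 36058 to 2573 counts (log2FC -3.78, -3.84 to -3.72), as was its partner KRT8, from 1197 to 556 counts (log2FC -1.07, -1.22 to -0.93). In the spheres the order of the latter pair was the opposite, with 2396 and 4810 counts of KRT18 and 106 and 983 of KRT8. KRT80, also on the list of simple epithelium, fell from 1410 to 1 counts (log2 ratio -10.43, -15.74 to -7.95), and the stratified keratin KRT17 from 1086 to 5 counts (log2FC -7.29, -9.36 to -6.51).

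Junction genes were divided. Of 22 measured genes of epithelial adhesion, 14 fell, 2 rose and 6 were not called (median log2FC -2.10, or -1.97 with the genes at 0 at their bounds). EPCAM, the epithelial cell adhesion molecule, fell from 2679 to 47 counts (log2FC -5.75, -6.25 to -5.39), and CLDN1, a claudin of tight junctions, from 14470 to 72 counts (log2FC -7.58, -7.98 to -7.29). AP1M2, the epithelial subunit of an adaptor complex for basolateral sorting, fell from 2040 to 3 counts (log2 ratio -9.38, -11.66 to -7.83), and MAL2, a protein of apical transport, from 8110 to 541 counts (log2FC -3.87, -4.0 to -3.75). The desmosomal plaque protein DSP fell from 22165 to 8214 counts (log2FC -1.40, -1.44 to -1.37).

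E-cadherin, by contrast, was close to equal in the 2 bulk libraries. CDH1, the cadherin of epithelial junctions whose loss defines EMT in many models, had 505 and 417 counts (log2FC -0.25, -0.44 to -0.06) and was not called. In the spheres CDH1 had 248 and 99 counts (log2FC -1.37, -1.73 to -1.04) and was called lower. OCLN, occludin of the tight junction, had 55 and 62 counts. DSG2, a desmosomal cadherin, rose from 7131 to 15596 counts (log2FC 1.16, 1.12 to 1.20), and the other member that rose was CGN, the tight junction adaptor cingulin.

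Regulators of the epithelial state and surface proteases fell in 10 of 15 measured genes and rose in 4 (median log2FC -2.71). ESRP1, which directs epithelial splicing, fell from 533 to 8 counts (log2FC -5.74, -7.25 to -5.04), and its relative ESRP2 from 885 to 17 counts (log2FC -5.53, -6.46 to -4.98). The ETS factors of epithelium fell as well, EHF from 1007 to 1 counts (log2 ratio -9.95, -15.25 to -7.46) and ELF3 from 874 to 14 counts (log2FC -5.76, -6.81 to -5.18). FOXA1 and GATA3, factors of luminal and urothelial epithelium, rose from 15 to 290 counts (log2FC 4.14, 3.56 to 5.16) and from 0 to 39 counts (at least 13.3-fold higher).

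E-boxes are the sites bound by SNAI and ZEB repressors and by many other factors, and are known from promoters of junction genes. The 250 bases before each transcription start were taken from RefSeq on GRCh38.p14 and searched for CAGGTG and CACCTG, which are each other's reverse complement. At least 1 match was in 11 of 24 windows (45.8%) of the adhesion list, covering 10 of 17 genes with a window, against 17.5% of all 35116 windows in the table. The regulator list had a match in 4 of 18 windows (22.2%). As E-boxes are known from junction promoters, a high share in the adhesion list may follow from the choice of list. It does not bear on the change between the lines. Of 9 measured adhesion genes with a match 5 fell, 1 rose and 3 were not called, while of 6 with a window but no match 5 fell and 1 rose. Among all windows, 17.8% of those of genes called higher, 17.6% of those of genes called lower and 14.8% of those of measured genes not called held the motif. Stretches of 70 bases are shown for 3 adhesion genes that fell and for DSG2, which rose, 5′ to 3′ on the gene's strand with the motif in capitals: CRB3 (chr19:6464118-6464187, plus strand), a polarity protein, CLDN7 (chr17:7262482-7262551, minus strand), a claudin, AP1M2 (chr19:10587313-10587382, minus strand), and DSG2 (chr18:31497945-31498014, plus strand).
CRB3: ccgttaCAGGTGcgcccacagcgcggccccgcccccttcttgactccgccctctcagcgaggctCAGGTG
CLDN7: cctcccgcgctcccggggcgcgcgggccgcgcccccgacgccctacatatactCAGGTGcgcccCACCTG
AP1M2: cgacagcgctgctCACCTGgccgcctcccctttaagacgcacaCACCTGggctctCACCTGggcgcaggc
DSG2: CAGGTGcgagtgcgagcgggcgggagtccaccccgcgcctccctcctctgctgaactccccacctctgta
CLDN7 fell from 167 to 38 counts (log2FC -2.05, -2.65 to -1.59), AP1M2 fell as given above, and CRB3 from 65 to 13 counts (log2FC -2.14, -3.28 to -1.42). A match is a stretch of letters and does not show that a factor bound there.

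Mesenchymal genes were not uniformly higher. Of 14 measured EMT factors and mesenchymal filaments 7 rose, 3 fell and 4 were not called, with a median log2FC of 1.22. That median was 0.51 with a minimum of 50 normalized counts on average. The repressors SNAI2, from 0 to 608 counts (at least 207-fold higher), ZEB2, from 239 to 1228 counts (log2FC 2.38, 2.19 to 2.60), and TWIST2, from 0 to 81 counts (at least 27.6-fold higher), rose. So did TCF4, a basic helix-loop-helix factor, from 277 to 1374 counts (log2FC 2.33, 2.15 to 2.53), and CDH11, the cadherin of mesenchymal cells, from 0 to 848 counts (at least 289-fold higher). ZEB1 had 844 and 1447 counts (log2FC 0.81, 0.68 to 0.93) and was not called.

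The filament and cadherin most often used to mark mesenchymal cells were already high in COV318-CTR. VIM, vimentin, had 21874 and 24774 counts (log2FC 0.21, 0.18 to 0.24) and CDH2, N-cadherin, 10681 and 8812 (log2FC -0.25, -0.29 to -0.21), neither of them called. FN1, fibronectin, fell from 24788 to 5650 counts (log2FC -2.10, -2.15 to -2.06) in bulk, while the spheres had 497 and 5450 counts. SPARC, a matricellular protein on the stromal list below, rose from 693 to 5825 counts (log2FC 3.10, 2.99 to 3.22).

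Contractile and stromal markers fell more often than they rose. Of 9 measured smooth muscle and myofibroblast genes 5 fell and 2 rose (median log2FC -1.68). Of 15 fibroblast and stromal markers 8 fell and 4 rose (median -1.42, or -0.77 with a pseudocount of 5). SPARC, given above, was among those 4. The summed normalized count of the stromal list was 6071 in COV318-CTR and 5728 in COV318-MGP. TAGLN, the actin-binding protein transgelin, fell from 24932 to 47 counts (log2FC -8.97, -9.47 to -8.61), and MYL9, a myosin light chain of contractile cells, from 2471 to 0 counts (at least 807-fold lower).

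**Figure D2:**
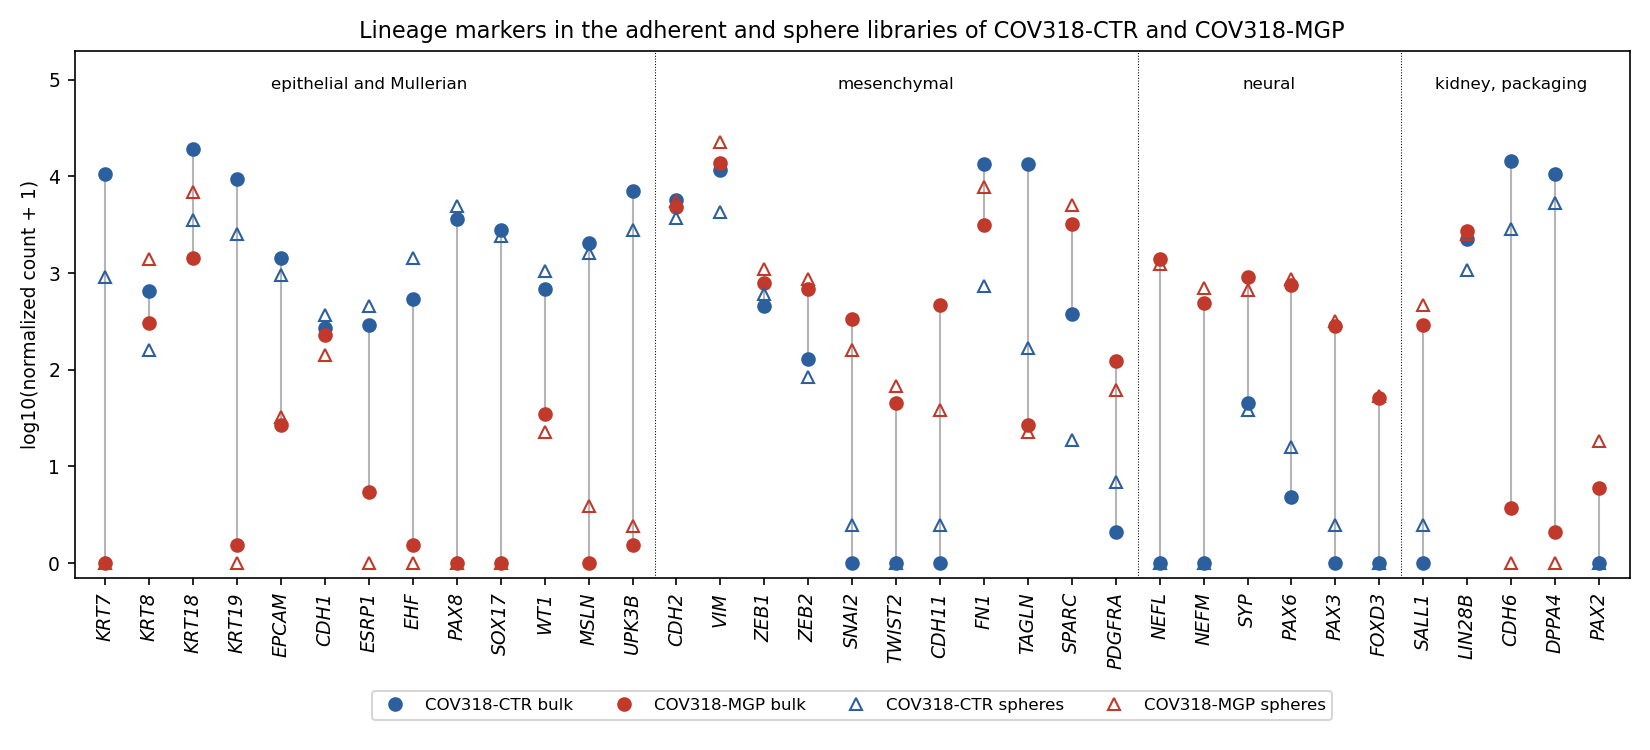
Log10(normalized count + 1) of lineage markers in the 4 COV318 libraries, with circles for bulk, triangles for spheres, blue for COV318-CTR and red for COV318-MGP, and a grey line joining the 2 bulk values. KRT7, PAX8 and SOX17 lie at 0 in both COV318-MGP libraries, CDH1, CDH2, VIM and LIN28B are close in the 2 bulk libraries, and NEFL, NEFM, PAX3 and SALL1 are at 0 in COV318-CTR bulk.

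Neural genes were among those gained. Of 18 measured neuronal and neuroendocrine markers 10 rose and 5 fell (median log2FC 1.89), and 6 of 8 measured neural crest, Schwann and melanocyte markers rose while 2 fell (median 3.13). With a minimum of 50 normalized counts on average, these medians were 0.23 and 2.19. The neurofilament subunits NEFL and NEFM rose from 0 to 2564 counts (at least 873-fold higher) and from 0 to 891 counts (at least 303-fold higher). SYP, a protein of synaptic vesicles, rose from 82 to 1653 counts (log2FC 4.33, 4.04 to 4.70), and ELAVL2, an RNA-binding protein of neurons, from 28 to 1697 counts (log2FC 5.86, 5.41 to 6.55). Other neuronal genes fell, such as SCG2, a granin of secretory granules, from 724 to 6 counts (log2FC -6.51, -8.34 to -5.76), and the microtubule protein MAP2, from 1228 to 198 counts (log2FC -2.59, -2.83 to -2.38).

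Neural progenitor markers rose in 4 of 7 measured genes and fell in 1. PAX6, a factor of the eye and forebrain, rose from 7 to 1353 counts (log2FC 7.29, 6.58 to 8.94), and POU3F2, a POU factor of neural precursors, from 1 to 1383 counts (log2 ratio 10.46, 7.98 to 15.77). PAX3, a factor of the neural crest and dermomyotome, rose from 0 to 508 counts (at least 173-fold higher).

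Endothelial markers fell in 6 of 9 measured genes and rose in 2 (median log2FC -2.20). VWF, the von Willebrand factor, fell from 1231 to 1 counts (log2 ratio -10.24, -15.54 to -7.75), and the VEGF receptor KDR from 690 to 27 counts (log2FC -4.56, -5.26 to -4.09). FLT1, the other VEGF receptor of the list, rose from 5 to 2859 counts (log2FC 8.73, 7.97 to 10.81).

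HOX genes encode the position of cells along the body axis and lie in 4 clusters ordered from head to tail. Of the lists examined, the HOXB, HOXC and HOXD clusters had the highest medians. All 9 measured HOXB genes, all 9 HOXC genes and all 8 HOXD genes rose, with median log2FC of 6.86, 6.82 and 6.53. With the genes at 0 placed at their bounds these medians were 6.15, 6.12 and 6.52. The HOXA cluster was already expressed in COV318-CTR, and there 6 of 11 measured genes rose, 1 fell and 4 were not called (median 1.49). Of the posterior genes, HOXD13 (chr2:176087487-176095944) rose from 0 to 2452 counts (at least 835-fold higher), HOXB9 from 2 to 2334 counts (log2 ratio 10.22, 8.36 to 13.27) and HOXC11 from 0 to 466 counts (at least 159-fold higher). HOXA13 rose from 5 to 1677 counts (log2FC 7.97, 7.19 to 10.04) and HOXA10 from 367 to 2407 counts (log2FC 2.74, 2.58 to 2.91). HOXA7 was the gene that fell, from 320 to 50 counts (log2FC -2.60, -3.11 to -2.21).

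**Figure D3:**
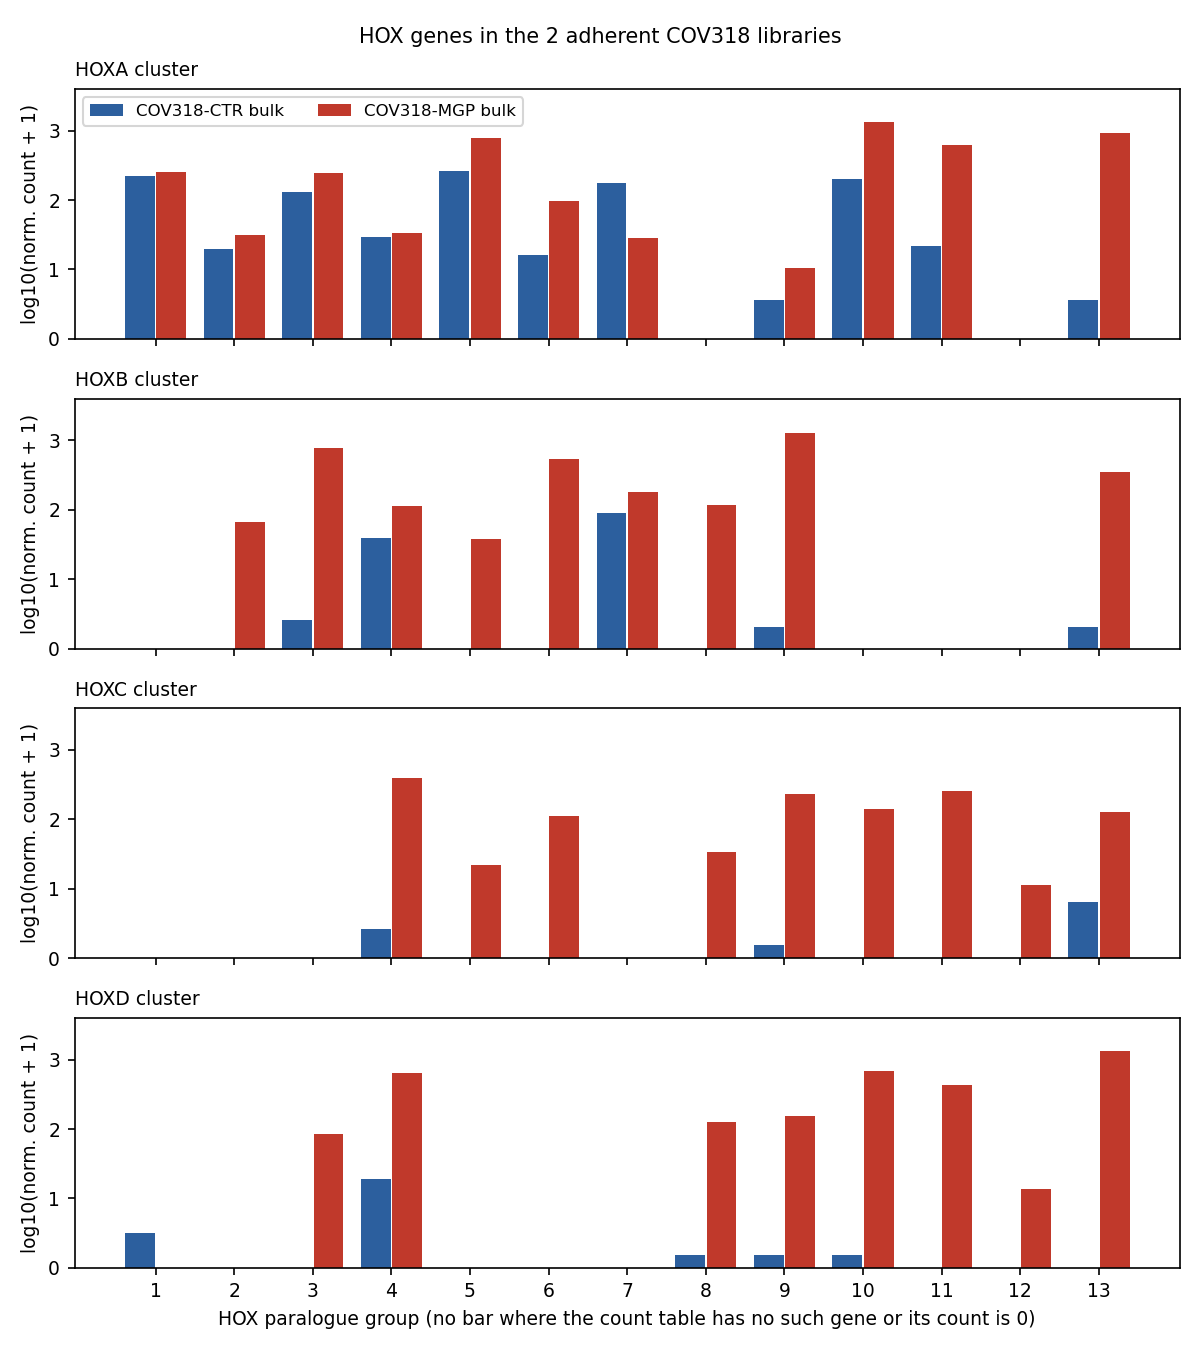
Log10(normalized count + 1) of each HOX gene in COV318-CTR bulk (blue) and COV318-MGP bulk (red), by cluster (panels) and paralogue group (horizontal axis). Bars of both colors are present through most of the HOXA cluster. Of the genes in the count table, 4 of 9 HOXB, 6 of 9 HOXC and 4 of 9 HOXD genes were at 0 in COV318-CTR bulk and have no blue bar.

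Other homeobox and patterning factors moved with them: 27 of 38 measured genes rose and 3 fell (median log2FC 3.22). The T-box factors TBX3, which acts in limb and mammary development, and TBX18, of the ureter and epicardium, rose from 0 to 4279 counts (at least 1456-fold higher) and from 0 to 1395 counts (at least 475-fold higher). TBX15, a T-box factor of limb and skin, fell from 1279 to 5 counts (log2FC -7.52, -9.59 to -6.74).

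Pluripotency and oncofetal genes fell in 7 of 14 measured genes and rose in 2 (median log2FC -1.16). DPPA4, a chromatin protein of pluripotent cells, fell from 19621 to 2 counts (log2 ratio -13.23, -16.28 to -11.38). Imprinted growth genes, each expressed from the allele of 1 parent, fell in 4 of 6 and rose in 2. MEST fell from 23229 to 2 counts (log2 ratio -13.47, -16.52 to -11.62), NDN from 3067 to 0 counts (at least 1001-fold lower) and PEG10 from 6247 to 13 counts (log2FC -8.69, -9.79 to -8.10). PLAGL1, also imprinted, rose from 2 to 1073 counts (log2 ratio 9.10, 7.24 to 12.15), and GRB10, an adaptor that restrains insulin receptor signaling, from 1142 to 3715 counts (log2FC 1.73, 1.64 to 1.83).

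Among the pathways, the interferon response was the list with the lowest median. Of 26 measured interferon-stimulated and antigen presentation genes 24 fell and 1 rose, at a median log2FC of -6.07. IFI6, an inhibitor of apoptosis and of viral replication, fell from 72005 to 270 counts (log2FC -8.02, -8.21 to -7.86). The antiviral GTPase MX1 (chr21:41420558-41459214) fell from 28247 to 2 counts (log2 ratio -13.76, -16.80 to -11.90), the ubiquitin-like ISG15 from 7454 to 36 counts (log2FC -7.59, -8.18 to -7.19), and IFIT1, which binds viral RNA, from 13443 to 308 counts (log2FC -5.41, -5.59 to -5.25). OAS1 and OAS3, which make the activator of RNase L, fell from 4069 to 1 counts (log2 ratio -11.96, -17.26 to -9.48) and from 6740 to 1 counts (log2 ratio -12.69, -17.99 to -10.21).

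Genes of antigen presentation fell too. The class I heavy chain HLA-B fell from 10761 to 859 counts (log2FC -3.61, -3.72 to -3.52) and its light chain B2M from 7004 to 494 counts (log2FC -3.79, -3.93 to -3.66). The class I genes are near-identical to each other, so the split of reads among them is uncertain. CIITA, the activator of class II genes, was the member that rose, from 1 to 10 counts (log2 ratio 3.35, 0.54 to 8.79).

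The promoters of the interferon list were searched for a regulatory sequence known from interferon-induced genes. A high share in this list therefore follows from the choice of list and does not bear on the change between the lines. The interferon-stimulated response element is bound by factors of the IRF family, and its core was searched as GAAANNGAAA and TTTCNNTTTC, which together cover both strands, with overlapping matches merged. The core was in 14 of 22 windows (63.6%) of the list, covering 12 of 18 genes with a window, against 3.02% of all 35116 windows. Of the 12 genes with the core 11 fell, and of the 6 with a window but no core all 6 fell. Stretches of 70 bases are shown, 5′ to 3′ on the gene's strand with the core in capitals, for 5 genes whose values are given above: IFI6 (chr1:27672274-27672343, minus strand), ISG15 (chr1:1013357-1013426, plus strand), IFIT1 (chr10:89392483-89392552, plus strand), OAS3 (chr12:112938331-112938400, plus strand) and MX1 (chr21:41431824-41431893, plus strand).
IFI6: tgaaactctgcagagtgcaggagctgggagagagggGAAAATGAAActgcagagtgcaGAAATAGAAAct
ISG15: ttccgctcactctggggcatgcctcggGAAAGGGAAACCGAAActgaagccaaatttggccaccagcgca
IFIT1: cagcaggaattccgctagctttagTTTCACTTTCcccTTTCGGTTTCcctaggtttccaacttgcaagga
OAS3: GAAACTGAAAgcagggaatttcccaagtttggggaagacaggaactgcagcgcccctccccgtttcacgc
MX1: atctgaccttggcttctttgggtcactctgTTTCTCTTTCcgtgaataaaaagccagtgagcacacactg
The letters describe the promoters and do not show binding in these cells.

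Inflammatory genes fell in 13 of 16 measured cytokines and NF-kB targets, and none rose (median log2FC -3.67). The adhesion molecule ICAM1 fell from 7202 to 2 counts (log2 ratio -11.78, -14.83 to -9.93), the chemokine CXCL8 from 1045 to 7 counts (log2FC -6.86, -8.51 to -6.14) and NFKBIA, the inhibitor that NF-kB itself induces, from 6128 to 966 counts (log2FC -2.63, -2.73 to -2.54). In the IL6 family, 7 of 13 measured ligands, receptors and STAT feedback genes fell and 3 rose. The cytokines IL6 and LIF fell from 145 to 3 counts (log2 ratio -5.56, -7.86 to -3.99) and from 4016 to 72 counts (log2FC -5.74, -6.13 to -5.44), and the receptor OSMR from 1460 to 37 counts (log2FC -5.20, -5.78 to -4.80). LIFR, the receptor of LIF, rose from 774 to 3882 counts (log2FC 2.35, 2.24 to 2.47).

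Targets of YAP and TEAD, the transcriptional arm of the Hippo pathway that responds to cell spreading, fell in 13 of 16 measured genes, with none higher (median log2FC -2.79). CCN2, CCN1 and ANKRD1, the usual readouts of this pathway, fell from 31854 to 137 counts (log2FC -7.81, -8.08 to -7.59), from 11811 to 448 counts (log2FC -4.68, -4.83 to -4.55) and from 26258 to 241 counts (log2FC -6.73, -6.93 to -6.55). The coactivator YAP1 fell from 13414 to 2339 counts (log2FC -2.49, -2.55 to -2.43). In the spheres, CCN1 had 454 and 1564 counts and ANKRD1 65 and 596, so both were higher in the COV318-MGP sphere library.

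Immediate early genes, which serum and growth factors induce through ERK and SRF, fell in 17 of 23 measured genes and rose in none (median log2FC -2.78). FOS fell from 11225 to 63 counts (log2FC -7.41, -7.83 to -7.09), EGR1 from 3048 to 29 counts (log2FC -6.60, -7.27 to -6.16) and the ERK phosphatase DUSP6 from 5203 to 19 counts (log2FC -7.94, -8.80 to -7.42). JUN, the partner of FOS, had 5666 and 5045 counts (log2FC -0.14, -0.19 to -0.08) and was not called.

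Receptors and ligands upstream of this pathway went in both directions. Of 32 measured receptor tyrosine kinases 15 rose and 8 fell, and of 14 EGF family and FGF ligands 8 rose and 5 fell (median log2FC 2.23, or 1.78 with the genes at 0 at their bounds). Among ligands with at least 50 normalized counts on average, the median was -1.90. EPHA2, an ephrin receptor of epithelial cells, fell from 12486 to 344 counts (log2FC -5.14, -5.31 to -5.0), and ERBB4, a neuregulin receptor, from 12205 to 356 counts (log2FC -5.06, -5.23 to -4.92). DDR2, the collagen receptor of mesenchymal cells, rose from 81 to 14759 counts (log2FC 7.51, 7.22 to 7.87), EPHA3 from 0 to 1668 counts (at least 568-fold higher) and KIT, the receptor of stem cell factor, from 1 to 1351 counts (log2 ratio 10.43, 7.95 to 15.73). Of the ligands, FGF18 fell from 5241 to 1 counts (log2 ratio -12.33, -17.63 to -9.85).

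TGF-beta genes fell in 11 of 17 measured members and rose in 2 (median log2FC -1.12). The ligand TGFB2 fell from 2043 to 55 counts (log2FC -5.14, -5.60 to -4.80) and the receptor TGFBR2 from 6444 to 489 counts (log2FC -3.68, -3.83 to -3.56). The BMP list, of interest because MGP binds BMP ligands, was even, with 9 of 27 measured genes higher and 9 lower. BMP2 rose from 158 to 1746 counts (log2FC 3.48, 3.26 to 3.74) and the antagonist NOG from 29 to 457 counts (log2FC 3.92, 3.47 to 4.60), while BMP7 fell from 7683 to 1670 counts (log2FC -2.17, -2.25 to -2.10).

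Vitamin K-dependent proteins and the enzymes of carboxylation, which MGP needs for its Gla residues, rose in 5 of 11 measured genes and fell in 2 (median log2FC 0.96). MGP itself is on this list and is 1 of the 5, and its count includes the introduced cDNA. GGCX, the carboxylase, had 4847 and 3245 counts (log2FC -0.55, -0.61 to -0.48) and was not called, and VKORC1, the reductase that recycles vitamin K, rose from 1138 to 2243 counts (log2FC 1.01, 0.91 to 1.11).

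Hedgehog signaling, in which SMO is released from PTCH receptors and activates GLI factors, had 6 of 11 measured ligands, receptors and co-receptors higher and none lower (median log2FC 1.48). That median was 0.74 with a minimum of 50 normalized counts on average. SMO rose from 244 to 2071 counts (log2FC 3.11, 2.92 to 3.31), the co-receptor CDON from 957 to 2618 counts (log2FC 1.48, 1.37 to 1.59) and the ligand trap HHIP, itself a target of the pathway, from 22 to 355 counts (log2FC 3.93, 3.42 to 4.73). PTCH1, the receptor and most direct target, had 438 and 718 counts (log2FC 0.74, 0.57 to 0.92) and was not called. Of 12 measured Hedgehog transcription factors and modifiers 5 rose and 1 fell. GLI1, whose own transcription is a readout of the pathway, rose from 11 to 181 counts (log2FC 3.86, 3.20 to 5.10).

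Notch genes were divided, with 5 of 15 measured members higher and 4 lower. The target HEY1 rose from 26 to 7797 counts (log2FC 8.16, 7.71 to 8.87), whereas the target HES1 fell from 8215 to 1090 counts (log2FC -2.88, -2.98 to -2.79) and the ligand JAG1 from 22055 to 796 counts (log2FC -4.76, -4.87 to -4.66).

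Of 30 measured WNT ligands, receptors and antagonists 14 fell and 10 rose. The ligands WNT10A and WNT7A, of epithelium and of the Mullerian duct, fell from 2435 to 0 counts (at least 795-fold lower) and from 1549 to 0 counts (at least 506-fold lower). The receptor FZD8 rose from 3 to 483 counts (log2 ratio 7.36, 5.81 to 9.64) and the ligand WNT10B from 1 to 331 counts (log2 ratio 8.40, 5.91 to 13.71). Feedback targets of beta-catenin went in both directions, 3 of 13 up and 3 down. The nuclear factor LEF1 rose from 0 to 687 counts (at least 234-fold higher) and the inhibitor NKD1 from 9 to 521 counts (log2FC 5.62, 4.95 to 7.02), and the inhibitor AXIN2 fell from 1345 to 549 counts (log2FC -1.26, -1.41 to -1.12).

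Retinoic acid and nuclear receptor genes rose in 12 of 24 measured members and fell in 5 (median log2FC 1.11). PPARG, the receptor of adipocyte and urothelial differentiation, rose from 1 to 905 counts (log2 ratio 9.85, 7.37 to 15.16), RXRA, its dimer partner, from 190 to 551 counts (log2FC 1.56, 1.33 to 1.81) and RARB, a receptor and target of retinoic acid, from 379 to 891 counts (log2FC 1.26, 1.09 to 1.44). CRABP2, the carrier of retinoic acid, fell from 3531 to 122 counts (log2FC -4.80, -5.10 to -4.56).

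The cyclins of G1 were exchanged. CCND1, cyclin D1, fell from 39672 to 997 counts (log2FC -5.28, -5.38 to -5.19) and its kinase CDK6 from 48941 to 5484 counts (log2FC -3.13, -3.17 to -3.09), while CCND2, cyclin D2, rose from 116 to 8523 counts (log2FC 6.21, 5.97 to 6.51). Of 19 measured G1 cyclins, inhibitors and RB pathway genes 8 fell and 3 rose. CDKN1A, the p21 inhibitor, rose from 27 to 1206 counts (log2FC 5.42, 4.96 to 6.12).

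The genes of S phase and mitosis had a median log2FC of -0.01, and 6 of 30 measured genes rose while 1 fell. MKI67 had 5224 and 4730 counts (log2FC -0.11, -0.17 to -0.06) and TOP2A 30066 and 31869 (log2FC 0.11, 0.09 to 0.14). The members that rose included MCM4, of the replicative helicase, from 6759 to 17475 counts (log2FC 1.40, 1.36 to 1.44), and the ribonucleotide reductase RRM1, from 4449 to 14592 counts (log2FC 1.74, 1.70 to 1.79).

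Of 23 measured apoptosis regulators 9 fell and 2 rose, among them the survival protein BCL2L1, which fell from 8836 to 514 counts (log2FC -4.07, -4.20 to -3.94).

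The matrix around the cells differed in composition. Of 25 measured fibrillar and network collagens 13 fell and 5 rose (median log2FC -1.01). COL11A1, a fibrillar collagen of cartilage and tumour stroma, fell from 11569 to 1 counts (log2 ratio -13.47, -18.77 to -10.99), and COL4A1, of basement membranes, from 20031 to 3197 counts (log2FC -2.62, -2.67 to -2.56). Of 15 measured laminins and basement membrane genes 8 fell and 5 rose. LAMA5, the laminin chain of epithelial basement membranes, fell from 13952 to 396 counts (log2FC -5.10, -5.26 to -4.96) and the proteoglycan AGRN from 23991 to 592 counts (log2FC -5.31, -5.43 to -5.19), whereas LAMA4, a chain of mesenchymal and vascular cells, rose from 275 to 3506 counts (log2FC 3.69, 3.52 to 3.88). NID1, nidogen, which links laminin to collagen IV (chr1:235975830-236065090), rose from 0 to 6351 counts (at least 2162-fold higher).

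Integrins followed the same pattern of exchange, with 9 of 18 measured genes lower and 7 higher. ITGAV and ITGB8, which can form a receptor for latent TGF-beta, fell from 56092 to 6502 counts (log2FC -3.08, -3.12 to -3.04) and from 23391 to 224 counts (log2FC -6.66, -6.87 to -6.49), and the shared subunit ITGB1 from 19830 to 6629 counts (log2FC -1.55, -1.59 to -1.51). ITGA8, the nephronectin receptor chain of kidney mesenchyme, rose from 0 to 2398 counts (at least 816-fold higher) and ITGA4, the chain that binds VCAM1 and fibronectin, from 0 to 1930 counts (at least 657-fold higher). Matrix proteases and inhibitors fell in 13 of 23 measured genes and rose in 7. MMP7, the epithelial matrilysin, fell from 5032 to 1 counts (log2 ratio -12.27, -17.57 to -9.79) and the membrane-bound MMP14 from 4939 to 45 counts (log2FC -6.69, -7.21 to -6.33). The plasminogen activator PLAT rose from 24 to 6932 counts (log2FC 8.10, 7.63 to 8.85), as did the inhibitor TIMP1, from 73 to 1506 counts (log2FC 4.36, 4.06 to 4.76).

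Genes of the cell cortex fell together. S100 calcium-binding proteins fell in 11 of 12 measured genes (median log2FC -2.54), annexins in 6 of 9 with 1 higher (median -2.73), and genes of caveolae and actin binding in 12 of 17 with 1 higher (median -2.55). S100A6 fell from 9306 to 3 counts (log2 ratio -11.57, -13.85 to -10.02), ANXA2, an annexin of the plasma membrane, from 45244 to 6679 counts (log2FC -2.73, -2.77 to -2.69) and TPM1, tropomyosin, from 62260 to 2663 counts (log2FC -4.52, -4.57 to -4.46). ANXA6 was the annexin that rose, from 2087 to 8448 counts (log2FC 2.05, 1.98 to 2.12). The actin gene ACTB, listed with the housekeeping genes, fell from 73123 to 24960 counts (log2FC -1.52, -1.54 to -1.50).

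Metabolic lists had a median log2FC under 1 in size, although the cholesterol list leaned to lower and the ATF4 list to higher. Cholesterol synthesis genes fell in 9 of 23 measured genes and rose in 1 (median log2FC -0.78). That 1 was SQLE, squalene epoxidase, from 3396 to 13193 counts (log2FC 1.99, 1.93 to 2.04). Glycolysis and glucose transport genes fell in 5 of 20 and rose in 4. The transporter SLC2A1 fell from 17117 to 749 counts (log2FC -4.48, -4.59 to -4.38) and SLC2A3 rose from 17 to 858 counts (log2FC 5.54, 5.0 to 6.47), a further exchange within a family. Targets of ATF4 rose in 7 of 18 and fell in 2, with PHGDH, the entry enzyme of serine synthesis, going from 3197 to 13570 counts (log2FC 2.12, 2.06 to 2.17).

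Most respiratory chain genes (20 of 28) and unfolded protein response genes (15 of 18) were not called. The hypoxia (9 of 18), NRF2 (6 of 14) and fatty acid (10 of 21) lists had a share not called at or below that of all measured genes (9593 of 19075). Of 28 measured nuclear-encoded respiratory chain genes 3 rose and 5 fell, and of 18 unfolded protein response genes 2 rose and 1 fell. Hypoxia targets rose in 3 of 18 and fell in 6, oxidative stress and NRF2 targets rose in 2 of 14 and fell in 6, and fatty acid genes rose in 4 of 21 and fell in 7. NDRG1, a hypoxia-induced gene, rose from 48 to 2994 counts (log2FC 5.94, 5.58 to 6.44).

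Genes that serve every cell were examined for the scaling. Cytosolic ribosomal protein genes had a median log2FC of 0.13, with 4 of 34 measured genes higher and 1 lower. Of 14 housekeeping genes 1 rose and 4 fell (median -0.41). GAPDH fell from 118438 to 52586 counts (log2FC -1.14, -1.16 to -1.13) and the transferrin receptor TFRC from 67099 to 7598 counts (log2FC -3.11, -3.15 to -3.08). Some genes that every cell uses had almost no counts in either line, such as POLR2A with 1 and 3 counts and RPS18 with 11 and 5, so a value near 0 in both libraries was not read as absence of expression.

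Outside the lists, the largest differences in normalized counts named further genes. Higher were AMOT, angiomotin, from 1818 to 39143 counts (log2FC 4.46, 4.39 to 4.53), PARP1, of DNA repair, from 14108 to 55299 counts (log2FC 2.0, 1.97 to 2.03), and the protocadherin PCDH9, from 272 to 16759 counts (log2FC 5.97, 5.80 to 6.15). IRS4 (chrX:108719946-108736563) was at least 11011-fold higher. Lower were SLPI, a secreted protease inhibitor of mucosal epithelium (chr20:45252239-45254564), from 76117 to 0 counts (at least 24848-fold lower), and the thymosin TMSB4X, from 34050 to 92 counts (log2FC -8.47, -8.81 to -8.21). CP, the copper carrier ceruloplasmin, fell from 27657 to 0 counts (at least 9028-fold lower) and the podocalyxin gene PODXL from 49262 to 1269 counts (log2FC -5.25, -5.33 to -5.17). The hyaluronan synthase HAS2 and the basement membrane protein FREM2 were among the genes with the largest rise, from 1 to 5289 counts (log2 ratio 12.40, 9.92 to 17.70) and from 1 to 4680 counts (log2 ratio 12.22, 9.74 to 17.53).

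The share of called genes differed between chromosomes. Of 506 measured genes on chromosome 20, 47.4% were lower and 12.8% higher, with a median log2FC of -0.92. On chromosome X, 39.1% of 629 measured genes were higher and 18.0% lower, and the median was 0.59. Chromosome 7 leaned to lower (35.6% against 17.0% higher) and chromosome 22 to higher (33.6% against 15.5% lower).

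**Figure D4:**
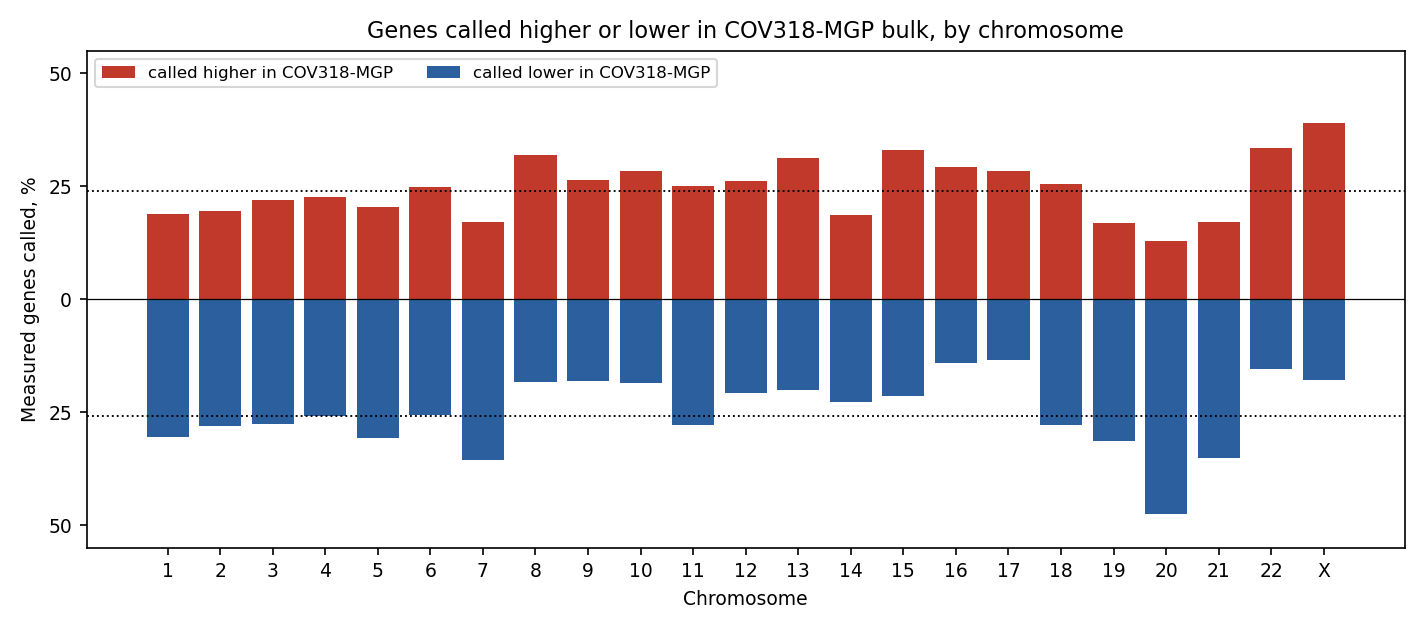
Percentage of measured genes on each chromosome called higher (red, above 0) or lower (blue, below 0) in COV318-MGP bulk. The dotted lines mark the shares over all measured genes, 23.9% and 25.8%. Chromosome 20 has the largest share of lower genes, 47.4%, and chromosome X the largest share of higher genes, 39.1%.

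Some neighbouring genes were silent together in 1 of the lines. Runs of 3 or more neighbouring genes with at most 3 counts in 1 line and at least 50 normalized counts in the other were searched in the RefSeq order of the table's genes. There were 6 runs, of 22 genes, silent in COV318-CTR and 16 runs, of 58 genes, silent in COV318-MGP. At a level of 100 normalized counts, 287 of 10903 genes in COV318-MGP bulk had 3 counts or fewer in COV318-CTR bulk, wherever they lay. In the opposite direction there were 393 of 10888. Whether the runs exceeded the number expected from such genes was not tested, and several runs hold members of 1 gene family. MPHOSPH8, PSPC1, ZMYM5 and ZMYM2 (chr13:19633659-20089115), of which MPHOSPH8 encodes a chromatin protein of the silencing complex HUSH, had 0 counts each in COV318-CTR bulk and 852 to 4431 in COV318-MGP bulk, and all 4 were at 3 counts or fewer in the COV318-CTR spheres. Among those silent in COV318-MGP were 9 genes of the gamma-protocadherin cluster (chr5:141355021-141512975), the 3 OAS genes (chr12:112906962-113011723) and the zinc finger genes ZNF506, ZNF253, ZNF93 and ZNF682 (chr19:19792711-20039505). Gamma-protocadherin transcripts share their 3′ exons, so counts of single genes in that cluster are uncertain.

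The adherent and sphere libraries of the same lines gave similar calls for most of these genes. Of 3850 genes that rose in bulk and were measured in both states, 2893 (75.1%) also rose in spheres and 70 (1.82%) fell. Of 4109 that fell in bulk, 3041 (74.0%) also fell in spheres and 86 (2.09%) rose. Beside these, genes measured in both states but not called in bulk were higher in spheres in 1378 cases, lower in 1197 and not called in 6352. Each state had its own 2 libraries of the same 2 lines, so the sphere pair was a second measurement of the lines and no independent pair of transductions.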

How the data were processed

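Ribonucleic acid of 8 cultures of 2 ovarian carcinoma lines was sequenced, and the adherent COV318-MGP and COV318-CTR libraries were compared here. The authors deposited raw counts of reads per gene for all libraries in 1 matrix and, per library, a signal of counts divided by size factors. Per the submitters' processing notes, STAR 2.7.5c, DESeq2 and the build hg38 were used. The deposited signal equalled count over median-of-ratios size factor, with a largest relative difference of 7.55e-10, so counts were used throughout. The protocol names poly(A), ribosomal depletion and capture kits of the TruSeq family without saying which library had which, and the strand setting of counting was not given in the sources used here. The gene with the fewest counts had 10 in its highest library, and mitochondrially encoded genes were not analysed here.

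Totals were 29814396 and 37393919 counts. Size factors over the 8 libraries (15518 genes) were 1.82 for COV318-MGP and 1.86 for COV318-CTR. Intervals were exact Clopper-Pearson 95% intervals of the share of a gene's counts in 1 library, turned into ratios. They cover counting error only, and reads carried no molecular identifiers. With 1 library a side, no p-value, standard deviation or test was computed. On counts simulated for this comparison, 200 of 200 genes changed by a log2FC of 3 were called, 89 of 18159 unchanged genes were called, and the interval held the true value in 95.6% of unchanged genes. The simulated counts held counting error alone, with known size factors and no spread between cultures. The simulation therefore checked the calculation and gave no rate of false calls for these data.

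The members and the 72 gene lists were chosen with earlier results of these data known. Genes were named if they were MGP, members of a list or, in each direction, among the 15 called genes with the largest difference in normalized counts outside the lists or the 15 with the largest interval bound. The OVCAR3 libraries entered only the size factors. POLR2A, neighbouring genes in runs and the small RNA and histone sets were chosen after their values were seen. Positions and promoter windows came from RefSeq on GRCh38.p14, matched by symbol (18800 genes) or synonym (452), and 1087 genes had no match. Alternatives covered the scaling, pseudocount, minimum count, log2FC threshold, interval condition and depth. Some genes and a list are not reported here. Scripts ran in Python 3.11.15 (libraries: scipy 1.17.1, pandas 2.3.3, numpy 2.4.6, matplotlib 3.10.9). The TMM factors alone came from edgeR 4.0.16 (R 4.3.3).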

Additional observations from a re-analysis of the deposited data

Results flagged for a closer look

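Among the genes of the lists, 20 were called in opposite directions in the adherent and the sphere libraries of COV318-MGP against COV318-CTR. Over all genes measured in both states, 70 (1.82%) of those that rose in bulk and 86 (2.09%) of those that fell had the opposite call in spheres. Whether the list genes exceeded that share was not tested. With 1 library in each of the 4 conditions, the difference between the states was not tested. The values below are log2FC, and 16 of the 20 list genes were lower in bulk and higher in spheres. YAP targets and early response factors were among them. ANKRD1, a YAP target, had -6.73 in bulk and 3.13 in spheres. CCN1, a matricellular YAP target, had -4.68 in bulk and 1.73 in spheres. JUNB, an AP-1 subunit, had -4.71 in bulk and 2.17 in spheres. KLF6, a zinc finger factor, had -1.79 in bulk and 1.14 in spheres. Matrix genes and their regulators formed another group. FN1, fibronectin, had -2.10 in bulk and 3.40 in spheres. MMP2, gelatinase A, had -1.41 in bulk and 4.53 in spheres. LTBP3, a binding protein of latent TGF-beta, had -1.12 in bulk and 1.45 in spheres. FST, follistatin, an activin inhibitor, had -1.31 in bulk and 1.45 in spheres. FGF2, a fibroblast growth factor, had -1.25 in bulk and 1.06 in spheres. Receptors were included. PDGFRB, a receptor of pericytes, had -2.80 in bulk and went from 2 to 10 counts in spheres. NOTCH3, a Notch receptor, had -2.02 in bulk and 1.40 in spheres. The others were single members of their lists. KRT8, a simple keratin, had -1.07 in bulk and 3.15 in spheres. FASN, fatty acid synthase, had -1.06 in bulk and 1.26 in spheres. ABCB1, the multidrug efflux pump, had -1.16 in bulk and 4.44 in spheres. CYP26A1, a retinoic acid hydroxylase, had -1.12 in bulk and 1.04 in spheres. ANKRD37, a hypoxia-induced gene, had -1.90 in bulk and 3.32 in spheres.

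In the other 4 genes the value was higher in bulk and lower in spheres. GDF11, a TGF-beta family ligand, had 1.03 in bulk and -1.18 in spheres. TGFBR3, betaglycan, a co-receptor, had 1.51 in bulk and -1.36 in spheres. CA12, a carbonic anhydrase, had 1.51 in bulk and -3.60 in spheres. SCUBE2, which releases Hedgehog ligands, had 1.97 in bulk (from 2 to 13 counts) and -1.53 in spheres.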

How the results depend on the processing

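Of 640 medians of 64 gene lists under the alternative settings, 21 had another sign than the reported one, in 12 lists. In 1 of those 12 the reported median was at least 1 in size: the EGF family and FGF ligands, at 2.23, had a median of -1.90 with a minimum of 50 normalized counts on average. The HOXC median of 6.82 became 7.56 with a pseudocount of 0.5 and 3.61 with a pseudocount of 10, as genes at or near 0 in COV318-CTR carry it. The lists with a median log2FC of at least 1 went from 13 to 8 with a pseudocount of 5 and to 6 with a pseudocount of 10. Genes called higher went from 4555 to 2426 with a minimum of 50 normalized counts on average and to 2675 at a log2FC threshold of 2, and genes called lower from 4927 to 2809 and 3014. The log2FC of MGP ranged from 11.04 to 14.38 over the settings and kept its direction.

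Scaling shifted all values together. The median log2FC over all measured genes was -0.04 with size factors, 0.07 with TMM factors and 0.26 with CPM, where 5605 genes were higher and 4137 lower. The share of calls that were higher was 48.0% with size factors and 57.5% with CPM. Calls of genes lower by just over 1 on the log2 scale, such as KRT8, therefore rest on the scaling, as each alternative scaling tried moved values upward.

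No paired analysis was possible because each line had 1 library in each state. For the same reason leaving out a library gave no value, and the edgeR and DESeq2 tests were not run. Depth limited the low end: 3 counts corresponded to 0.101 CPM in COV318-MGP and 0.0802 CPM in COV318-CTR. How far 2 cultures of 1 line would differ was not measured.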

Other observations

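Genes used to describe cancer stem cells went in both directions in the adherent cells. Of 13 measured stem cell surface markers 3 rose and 5 fell. Of 17 measured aldehyde dehydrogenases, the enzymes behind a common assay of stem-like cells, 6 rose, 3 fell and 8 were not called, with a median log2FC of 0.66. Drug efflux pumps of the ABC family rose in 6 of 13 and fell in 5. ABCA3, a lipid transporter, rose from 189 to 1595 counts (log2FC 3.09, 2.89 to 3.33), and ABCB1, the multidrug pump, fell from 982 to 428 counts (log2FC -1.16, -1.34 to -1.0).

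Regulators of chromatin were closer to the background. Of 19 measured DNA methylation and Polycomb genes 5 rose, 3 fell and 11 were not called (median log2FC 0.08). DNMT3B, a de novo DNA methyltransferase, rose from 266 to 1280 counts (log2FC 2.29, 2.11 to 2.49), and TET2, which oxidizes methylated cytosine, fell from 2004 to 959 counts (log2FC -1.03, -1.15 to -0.92).

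Markers of other tissues were few. Cartilage and bone markers rose in 3 of 13 measured genes and fell in 6. Among classical and type II cadherins, 4 of 13 rose and 4 fell. Of the lists with under 6 measured genes, cancer testis antigens had 3 of 4 higher, granulosa and steroidogenic markers 3 of 4 higher and 1 lower, mucins 1 of 4 higher and 3 lower, and liver and yolk sac markers 1 of 3 higher and 2 lower. Blood cell markers had 2 of 3 measured genes higher, skeletal and cardiac muscle markers 1 of 4 higher and placental markers 0 of 2 called.

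Transcripts without a poly(A) tail took a small share of the counts in both bulk libraries. The 405 small RNA and clustered histone genes of the table held 4.44% of the counts in COV318-CTR bulk and 3.41% in COV318-MGP bulk. The small RNA genes held 3.95% and 2.82%, and the histone genes, in the other direction, 0.495% and 0.592%. Of 60 measured histone genes 4 rose and 23 fell. H1-5, a linker histone of dividing cells, fell from 7702 to 0 counts (at least 2514-fold lower). RN7SK, a small nuclear RNA that restrains transcription elongation, fell from 1025519 to 433115 counts (log2FC -1.21, -1.22 to -1.21), and SNORD3A, the U3 RNA of ribosome assembly, rose from 45840 to 155539 counts (log2FC 1.79, 1.78 to 1.81). Several of these genes have near-identical copies, so the split of their reads is uncertain.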
